A study of Rattus norvegicus with 12 samples.

Results

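Metallothioneins and zinc transporters were followed across rings of rat aorta cultured in fibrin or collagen gel with or without the inflammatory cytokine TNF-alpha. The set holds 5 of the 14324 genes measured: the metallothioneins Mt1, Mt2A and Mt3, the zinc exporter Slc30a1 and the zinc importer Slc39a14. They were found by symbol in the gene annotation of the array. Mt1 and Mt2A have several probe sets, and the one used was chosen by its mean level across all 12 arrays, which does not use the groups. The probe set taken had a mean of 13.22 against 13.08 for Mt1 and of 13.87 against 13.70 for Mt2A (log2 level), and the other probe sets are given as a check.

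Aortic rings of male Fisher 344 rats, 1 to 2 months old, were cultured to day 2 in serum-free EBM medium, and 4 to 6 ring cultures were combined into each sample. The 4 groups of 3 arrays were fibrin TNF (fibrin gel, 10 ng/ml recombinant rat TNF-alpha), fibrin control (fibrin gel, untreated), collagen TNF (collagen gel, 10 ng/ml) and collagen control (collagen gel, untreated). All groups thus shared the strain, sex, medium and day. The labels call the replicates biological but do not say whether they came from different animals, so the p-values cover only the spread among the arrays, which may be technical, and the number of arrays limits the precision.

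Metallothioneins are small cysteine-rich proteins that bind zinc and copper, buffer free zinc in the cytosol and can scavenge oxidants. Free zinc activates the transcription factor MTF-1, encoded by Mtf1, which binds metal response elements in the promoters of Mt1, Mt2A and Slc30a1. Proteins of the Slc30 family move zinc out of the cytosol, across the plasma membrane in the case of Slc30a1, and proteins of the Slc39 family move it in. Slc39a14, which carries iron and manganese as well as zinc, is known in mouse liver as an importer that interleukin-6 induces, and metallothioneins are known to rise with cytokines, glucocorticoids and metals.

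Mt1, Mt2A and Slc39a14 were low in 1 group only, collagen control, and high in the other three groups. TNF raised all 3 in collagen, Mt1 by 1.76-fold, Slc39a14 by 1.42-fold and Mt2A by 1.38-fold. Untreated fibrin was above untreated collagen by 1.72-fold for Mt1, 1.63-fold for Slc39a14 and 1.4-fold for Mt2A. In fibrin no TNF effect on these genes passed the test. Mt3 and Slc30a1 passed in no comparison.

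Mt1 encodes one of the 2 widely expressed metallothioneins among the 5 genes. Its log2 level was 13.52, 13.58 and 13.60 on the fibrin TNF arrays, 13.44, 13.35 and 13.27 on the fibrin control arrays, 13.45, 13.30 and 13.40 on the collagen TNF arrays, and 12.63, 12.49 and 12.60 on the collagen control arrays. The collagen control arrays lay apart from all others, by more than the whole range of the other 9 arrays. The order of the group means was fibrin TNF, collagen TNF, fibrin control and collagen control, of which collagen TNF (13.38 ± 0.07, SD, n = 3) and fibrin control (13.35 ± 0.08) overlapped array by array.

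Mt2A, the other widely expressed isoform, had log2 levels of 14.07, 14.03 and 14.05 in fibrin TNF, 14.05, 13.98 and 13.89 in fibrin control, 13.99, 13.94 and 13.96 in collagen TNF, and 13.55, 13.45 and 13.47 in collagen control. The pattern was that of Mt1 on a narrower span: the group means spanned 0.56 for Mt2A and 1.00 for Mt1. The Mt2A probe set held the highest value of the whole table, and its signal ranked between 1 and 29 of 27342 probe sets on the 12 arrays; that of Mt1 ranked between 17 and 262. A rank of signal is no ranking of transcript number, and whether the scale compresses differences near its top was not tested.

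Slc39a14 had log2 levels of 12.23, 12.24 and 12.30 in fibrin TNF, 12.25, 12.32 and 12.18 in fibrin control, 12.14, 12.03 and 11.97 in collagen TNF, and 11.54, 11.46 and 11.62 in collagen control. Here both fibrin groups lay at 12.25 ± 0.04 with TNF and 12.25 ± 0.07 without it (SD, n = 3), above every collagen TNF array. Collagen TNF thus lay between both fibrin groups and collagen control, though its difference from fibrin TNF did not pass. For Mt1, by comparison, fibrin TNF lay above collagen TNF and fibrin control, which overlapped.

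Mt3, a metallothionein best known from the brain, had log2 levels of 5.82, 5.62 and 6.13 in fibrin TNF, 5.81, 5.72 and 5.85 in fibrin control, 5.88, 6.05 and 5.85 in collagen TNF, and 5.48, 5.90 and 5.78 in collagen control. Its probe set lay between the 44.1 and 52.3 percentile of all probe sets on an array, and its groups overlapped in all comparisons. Slc30a1, the plasma membrane exporter, had log2 levels of 8.64, 8.53 and 8.44 in fibrin TNF, 8.66, 8.61 and 8.53 in fibrin control, 8.86, 8.53 and 8.65 in collagen TNF, and 8.75, 8.59 and 8.45 in collagen control. Its 4 group means spanned 0.14, close to its pooled within-group SD of 0.13, and its groups overlapped as well.

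**Figure D1:**
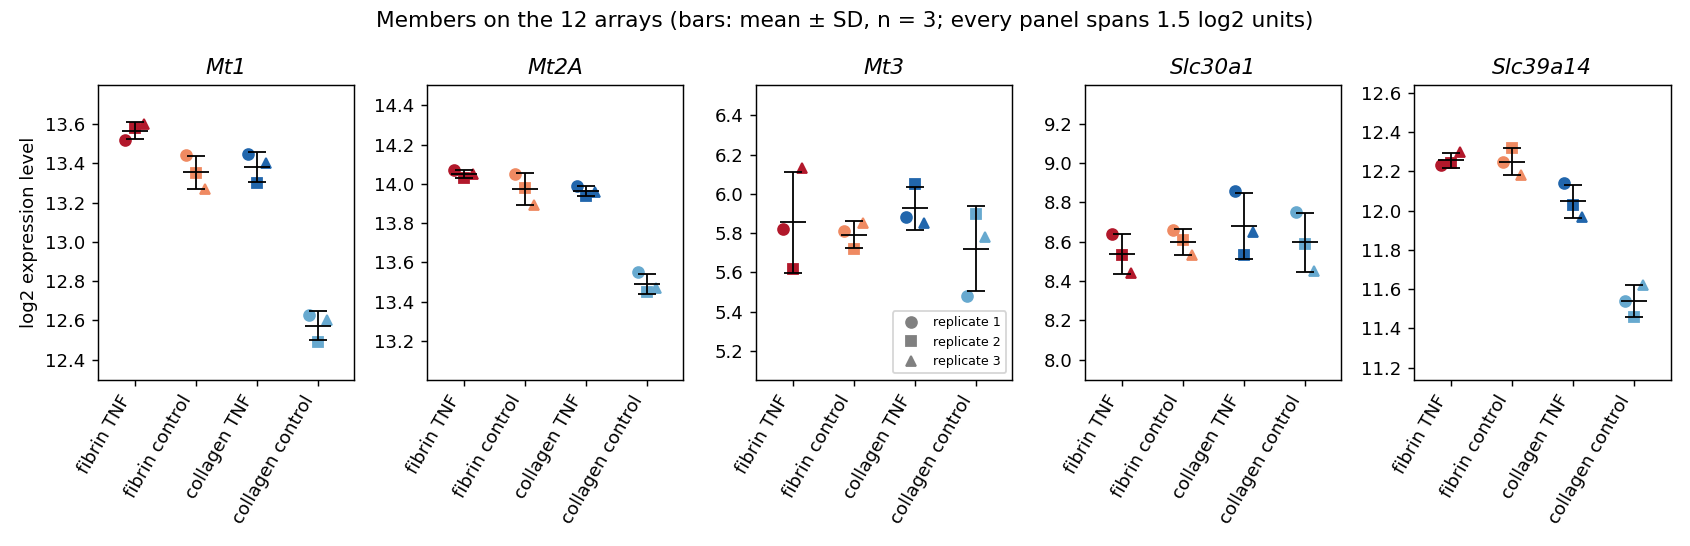
Log2 expression level (vertical axis) of the 5 genes on the 12 arrays, by group (horizontal axis); symbols mark the replicate number, and black bars are the mean ± SD of 3 arrays. Collagen control stands below the other groups for Mt1, Mt2A and Slc39a14, while the groups of Mt3 and Slc30a1 overlap.

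Mt1, Mt2A, Mt3 and the fourth metallothionein gene, Mt4, follow each other on rat chromosome 19 with no other gene between them in the RefSeq table of assembly GRCr8. Slc30a1 lies on chromosome 13 and Slc39a14 on chromosome 15. The promoters of 4 of the 5 genes were matched in RefSeq (build GRCr8), and the 250 bases before each transcription start are shown. The reason is that metal response elements are the known route from zinc to Mt1, Mt2A and Slc30a1. Capitals mark matches to the element core, searched as TGCACNC or TGCGCNC on both strands.
Mt1 (chr19:10832976-10833225, minus strand): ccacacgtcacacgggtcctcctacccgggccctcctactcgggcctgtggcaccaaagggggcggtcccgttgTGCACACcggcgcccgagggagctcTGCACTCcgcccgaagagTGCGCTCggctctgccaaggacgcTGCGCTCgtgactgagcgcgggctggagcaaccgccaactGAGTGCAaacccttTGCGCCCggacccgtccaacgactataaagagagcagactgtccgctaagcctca
Mt2A (chr19:10838709-10838958, minus strand): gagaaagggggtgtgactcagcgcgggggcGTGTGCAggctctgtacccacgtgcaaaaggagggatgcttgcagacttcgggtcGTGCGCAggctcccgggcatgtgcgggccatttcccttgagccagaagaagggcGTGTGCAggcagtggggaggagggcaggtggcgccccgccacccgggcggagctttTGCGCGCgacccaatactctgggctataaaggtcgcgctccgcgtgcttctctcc
Mt3 (chr19:10856081-10856330, minus strand): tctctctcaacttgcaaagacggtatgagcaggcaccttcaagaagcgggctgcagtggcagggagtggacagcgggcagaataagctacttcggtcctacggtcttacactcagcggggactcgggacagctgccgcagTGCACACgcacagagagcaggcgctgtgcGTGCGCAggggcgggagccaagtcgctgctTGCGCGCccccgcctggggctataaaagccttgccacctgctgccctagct
Slc30a1 (chr13:106021769-106022018, plus strand): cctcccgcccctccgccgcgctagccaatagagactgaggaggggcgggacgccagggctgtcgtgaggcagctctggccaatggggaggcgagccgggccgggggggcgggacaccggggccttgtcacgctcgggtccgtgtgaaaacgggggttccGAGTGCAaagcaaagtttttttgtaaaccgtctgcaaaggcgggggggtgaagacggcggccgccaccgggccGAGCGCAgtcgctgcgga

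The core was found at 6 places before Mt1, 4 before Mt2A, 3 before Mt3 and 2 before Slc30a1. Of 27457 RefSeq promoters of the same length, 21.2% held it at least once, 5.13% at 2 or more places, 1.25% at 3 or more, 0.277% at 4 or more and 0.0219% at 6 or more. The match nearest the start lay 55 to 49 bases before it in both Mt1 and Mt2A. The STAT core TTCNNNGAA, present in 7.5% of promoters, had 0 matches in these 4 windows. The hypoxia core ACGTG or GCGTG (37.9% of promoters) matched 5 places before Mt2A, 2 before Mt3 and 1 each before Mt1 and Slc30a1, overlapping 2 metal element matches in Mt2A and 2 in Mt3. The antioxidant core TGACNNNGC (10.2% of promoters) matched 1 place each before Mt1, Mt2A and Slc30a1 and 0 before Mt3. These matches are letters in a window, and the array did not measure factor binding.

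**Figure D2:**
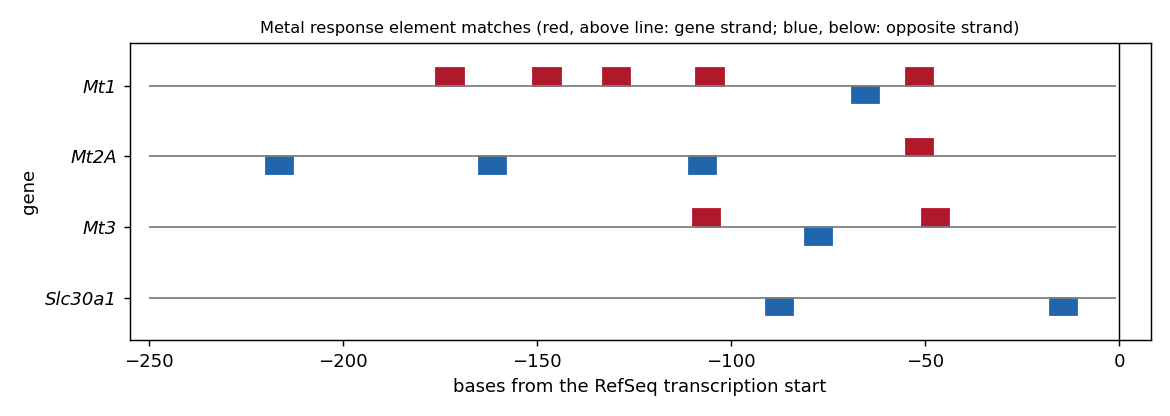
Matches to the metal response element core in the 250 bases before the RefSeq transcription start (horizontal axis, bases from the start) of 4 genes, red above the line on the strand of the gene and blue below it on the opposite strand. Mt1 has 6 matches, Mt2A 4, Mt3 3 and Slc30a1 2.

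TNF was tested in collagen gel first. Of the 5 genes 3 rose and 0 fell at an adjusted p below 0.05, where 6.37% of all 14324 genes passed, 3.27% rising and 3.10% falling. Mt1 rose by 0.81 ± 0.07 (log2, SE; adjusted p = 1.67e-05), Slc39a14 by 0.51 ± 0.07 (adjusted p = 0.00071) and Mt2A by 0.47 ± 0.06 (adjusted p = 0.000545). For each of the 3 genes, every collagen TNF array was above every collagen control array, as for 12.7% of all genes (13.8% lay wholly below). The second Mt1 probe set gave 0.77 ± 0.08 and the second Mt2A probe set 0.52 ± 0.07. Mt3 differed by 0.21 (95% interval -0.07 to 0.49) and Slc30a1 by 0.09 (-0.13 to 0.30), and neither passed.

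In fibrin the same treatment gave no call among the 5 genes in limma, with 1 at an unadjusted p below 0.05, where 3.13% of all genes passed, 1.65% rising and 1.47% falling. Mt1 differed by 0.21 ± 0.07 (log2, SE; adjusted p = 0.14), with a 95% interval of 0.06 to 0.37, and its fibrin TNF arrays all lay above its fibrin control arrays. Of all genes 10.2% had higher and 7.97% lower TNF arrays without overlap. With a trended and robust variance prior the Mt1 difference passed (adjusted p = 0.0252). Mt2A differed by 0.08 (-0.06 to 0.21), Mt3 by 0.06 (-0.21 to 0.34), Slc30a1 by -0.06 (-0.28 to 0.15) and Slc39a14 by 0.01 (-0.15 to 0.16). The intervals of Mt1, Mt2A and Slc39a14 leave out the 0.81, 0.47 and 0.51 seen in collagen, which have errors of their own. The difference of these effects is tested below.

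Fibrin was set against collagen without TNF next, a comparison that uses the same collagen control arrays as the TNF effect in collagen. Of the 5 genes 3 were higher and 0 lower in fibrin control, where 10.5% of all genes passed, 5.35% higher and 5.19% lower. The log2 differences were 0.78 ± 0.07 (SE; adjusted p = 1.03e-05) for Mt1, 0.71 ± 0.07 (adjusted p = 2.54e-05) for Slc39a14 and 0.48 ± 0.06 (adjusted p = 0.000246) for Mt2A. The groups of these 3 genes did not overlap, as for 14.3% of all genes on the higher side. Mt3 differed by 0.07 (95% interval -0.21 to 0.35) and Slc30a1 by 0.01 (-0.21 to 0.22).

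With TNF in both gels, none of the 5 genes passed in limma, with 2 at an unadjusted p below 0.05, against a background of 8.19% of all genes (4.55% higher in fibrin TNF, 3.64% lower). The differences were 0.21 ± 0.07 for Slc39a14 (log2, SE; adjusted p = 0.104), 0.18 ± 0.07 for Mt1 (adjusted p = 0.142) and 0.09 ± 0.06 for Mt2A (adjusted p = 0.446). All 3 had every fibrin TNF array above every collagen TNF array, as had 14.8% of all genes (12.9% lay wholly below). Slc39a14 and Mt1 passed with a trended and robust prior (adjusted p = 0.0256 and 0.0322). Mt3 differed by -0.07 and Slc30a1 by -0.14, and their arrays overlapped.

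The difference of the TNF effect between the gels was tested directly, and it draws on all 4 groups, including the level already reached in fibrin control. The TNF effect was lower in fibrin for 2 of the 5 genes, where 1.24% of all genes passed, 0.866% lower and 0.370% higher. For Mt1 the difference was -0.60 ± 0.10 (log2, SE; adjusted p = 0.0112), and the second Mt1 probe set gave -0.57 ± 0.11. For Slc39a14 it was -0.50 ± 0.10 (adjusted p = 0.0278). Its adjusted p was 0.0673 when replicate numbers were blocked in each gel and 0.0578 over all probe sets. It was 0.0588 to 0.0802 without collagen control replicate 1 or 2, collagen TNF replicate 1 or 2, fibrin control replicate 1 or 2, or fibrin TNF replicate 1. For Mt2A the difference of -0.39 ± 0.09 did not pass (adjusted p = 0.0571), but it passed after quantile normalization (adjusted p = 0.0125), which sets Mt2A equal in the fibrin TNF, fibrin control and collagen TNF groups because it was the brightest probe set on their arrays. It also passed without the dimmest 33.3% of genes (0.0229), under the trended, robust prior (0.00181) and for the mean of the Mt2A probe sets (0.043). Mt3 (-0.14, 95% interval -0.54 to 0.25) and Slc30a1 (-0.15, -0.45 to 0.16) did not pass.

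**Figure D3:**
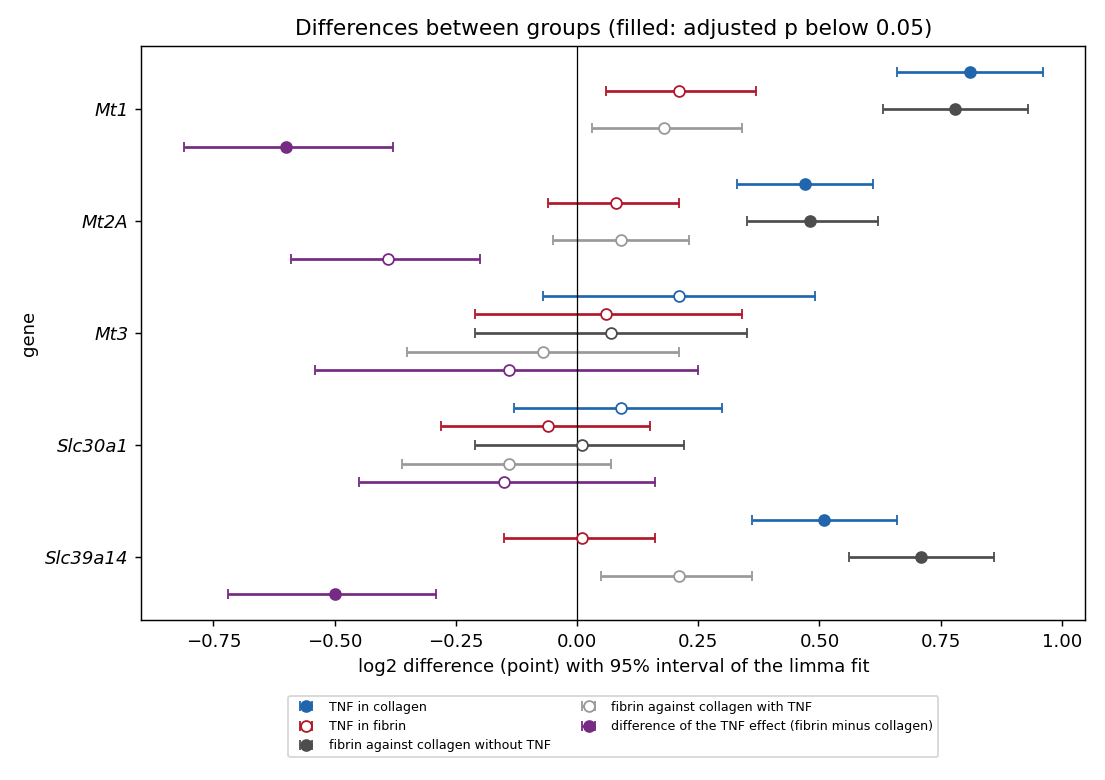
Log2 differences (horizontal axis) of the 5 genes in the 5 comparisons, as points with the 95% interval of the limma fit; filled points passed at an adjusted p below 0.05. Mt1, Mt2A and Slc39a14 are right of 0 for TNF in collagen and for untreated fibrin against untreated collagen, and Mt3 and Slc30a1 have intervals across 0 throughout.

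Across the 12 arrays, whose group structure and shared samples all genes have in common, Mt1 and Mt2A had a Pearson r of 0.99, and Slc39a14 had 0.95 with each. Slc30a1 had 0.03 with Mt1 and 0.09 with Mt2A. The 2 probe sets agreed closely within a gene, with r of 0.999 for Mt1 and 0.997 for Mt2A. RefSeq also lists 3 pseudogenes of Mt1, and Mt1 and Mt2A are close relatives in sequence, so probes may be shared and neither level is certain as that of a single gene. After the group means were removed, Mt1 and Mt2A still had r of 0.77 over the 12 arrays, and Mt2A and Slc30a1 had 0.65. Replicate 1 was the highest array of its group in 4 of 4 groups for Mt2A and Slc30a1, as for 4.24% of all genes.

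The profiles most like these 3 genes were looked for among 1466 other genes whose group means spanned at least 0.5, by Pearson r over the 12 arrays. Closest to Mt1 after Mt2A came Fgr, a kinase of myeloid cells (0.984), the chemokine gene Ccl7 (0.982), Tspo, a mitochondrial outer membrane protein (0.982), and Cnnm2, linked to magnesium transport (0.980). Closest to Mt2A after Mt1 came Timp1, an inhibitor of matrix metalloproteinases (0.988), the amino acid transporter gene Slc7a3 (0.988), Ccl7 (0.985) and Sod2, the mitochondrial superoxide dismutase (0.984). For Slc39a14 they were Cnnm2 (0.973), the acute-phase gene Orm1 (0.965), Timp1 (0.962), the vitamin C transporter gene Slc23a2 (0.961) and Tspo (0.959). Several of these genes spanned a wider range: Timp1 averaged 13.10 in fibrin TNF, 12.99 in fibrin control, 12.88 in collagen TNF and 11.86 in collagen control, and Cnnm2 averaged 9.91, 9.78, 9.70 and 8.73 in the same groups (log2 level).

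The rest of the zinc system was read from lists of both transporter families. Of 10 Slc30 exporters 0 passed in any of the 5 comparisons in limma, with 0 or 1 at an unadjusted p below 0.05 in each. The share of all genes passing ran from 1.24% to 10.5% over these comparisons, so 0 of 10 is close to it. However, 1 of the 10 passed for TNF in collagen in 4 of 21 alternatives, among them quantile normalization. The same number passed for fibrin against collagen with TNF in 2 of 21, and without TNF in 2 of 21, which left out collagen control replicate 3 or fibrin control replicate 2. The exporters' differences with TNF in collagen ran from 0.01 to 0.22 (median 0.06). Of 14 Slc39 importers 3 rose and 0 fell with TNF in collagen (median 0.18), and 3 were higher and 0 lower in fibrin control than in collagen control (median 0.15). Over all genes 3.27% rose and 3.10% fell in the first of these comparisons, 5.35% were higher and 5.19% lower in the second, and the medians were within 0.01 of 0. With TNF in both gels 0 of the 14 passed in limma (8.19% of all genes did), with 5 at an unadjusted p below 0.05. The count there was 1 or 2 in 7 of 21 alternatives, among them the replicate block (1), the trended, robust prior (2) and the fits without fibrin TNF replicate 1 or fibrin control replicate 1 (1 each).

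Slc39a10, a plasma membrane importer that zinc represses through MTF-1 in mouse, was, with Slc39a14, the importer called both for TNF in collagen and for fibrin against collagen without TNF. Its log2 level was 9.21, 9.45 and 9.45 in fibrin TNF, 9.05, 9.07 and 9.09 in fibrin control, 9.06, 9.06 and 9.17 in collagen TNF, and 8.51, 8.48 and 8.63 in collagen control. Collagen control was again the low group. Slc39a10 rose by 0.56 ± 0.08 with TNF in collagen (log2, SE; adjusted p = 0.000748) and was higher by 0.53 ± 0.08 in untreated fibrin (adjusted p = 0.00062). In fibrin it differed by 0.30 ± 0.08 with TNF (adjusted p = 0.0615), where Slc39a14 differed by 0.01, and its difference of TNF effects, -0.26 ± 0.11, did not pass (adjusted p = 0.339).

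Slc39a13, which supplies zinc within the secretory pathway and is needed for connective tissue, rose by 0.40 ± 0.08 with TNF in collagen (log2, SE; adjusted p = 0.0114). Its adjusted p was 0.0526 without collagen control replicate 2 and 0.0561 without collagen TNF replicate 1. Slc39a4, the intestinal zinc importer, was among the dimmest 33.3% of genes by mean level. It was the importer called for TNF in fibrin, at 0.34 ± 0.07 (adjusted p = 0.0277). That call was lost in 8 of 20 alternatives, among them the fits without fibrin control replicate 2 or 3 (adjusted p = 0.0713 and 0.132) and without fibrin TNF replicate 1 or 3 (0.0753 and 0.0965). Slc39a6, higher by 0.28 in untreated fibrin (adjusted p = 0.0484), lost its call in 13 of 21 alternatives, with adjusted p up to 0.161 without fibrin control replicate 3. Slc39a8, the closest relative of Slc39a14, passed in no comparison and differed by 0.16 ± 0.08 with TNF in collagen.

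**Figure D4:**
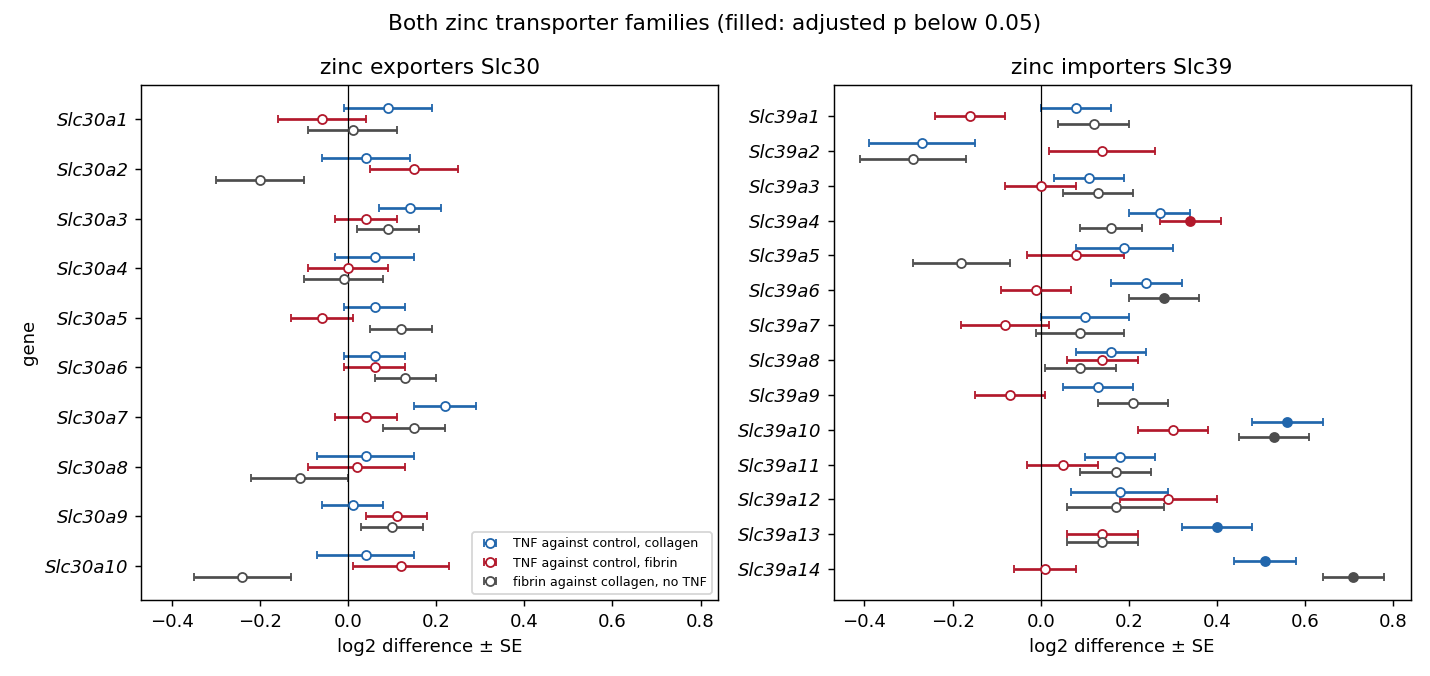
Log2 differences ± SE (horizontal axis) of 10 Slc30 exporters (left panel) and 14 Slc39 importers (right panel) for TNF against control in collagen (blue), TNF against control in fibrin (red) and fibrin against collagen without TNF (grey); filled points passed at an adjusted p below 0.05. Filled points occur among the importers, led by Slc39a14 and Slc39a10, and at none of the 10 exporters.

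Mtf1 itself averaged 7.54 ± 0.10 in fibrin TNF, 7.52 ± 0.13 in fibrin control, 7.52 ± 0.01 in collagen TNF and 7.43 ± 0.08 in collagen control (log2 level, SD, n = 3), and no difference passed. Of 9 zinc sensing and binding genes 0 passed in limma for TNF in collagen or in fibrin (2 and 0 at an unadjusted p below 0.05). Over all genes 6.37% passed for TNF in collagen and 3.13% in fibrin, so 0 of 9 is close to those shares. For TNF in collagen 1 passed in 4 of 21 alternatives, which were the replicate block and the fits without collagen control replicate 1, fibrin control replicate 2 or fibrin control replicate 3. In untreated fibrin S100a9, a subunit of the zinc-binding protein calprotectin, was higher by 0.81 ± 0.19 (adjusted p = 0.0158, and 0.053 without collagen control replicate 2), while its partner S100a8 differed by -0.04. With TNF in both gels A2m, a protease inhibitor that binds zinc, was lower in fibrin (-0.67 ± 0.11, adjusted p = 0.00286). S100a9 and A2m were each the 1 call among the 9 genes in their comparison. Over all genes 10.5% passed for fibrin against collagen without TNF and 8.19% with TNF. S100a9 and A2m were both among the dimmest 33.3% of genes by mean level.

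Other metals were read from lists of 26 iron and 14 copper handling genes. Beside their counts, 3.27% of all genes rose and 3.10% fell with TNF in collagen, 1.65% rose and 1.47% fell with TNF in fibrin, and 5.35% were higher and 5.19% lower in fibrin control than in collagen control. Of the iron genes 8 rose and 1 fell with TNF in collagen, 2 rose and 2 fell with TNF in fibrin, and 10 were higher and 3 lower in fibrin control (8 in all without fibrin control replicate 1). Lcn2, which binds bacterial iron carriers, averaged 8.02 ± 0.30 in fibrin TNF, 8.28 ± 0.28 in fibrin control, 6.72 ± 0.33 in collagen TNF and 5.40 ± 0.28 in collagen control (log2 level, SD, n = 3). It rose by 1.32 ± 0.20 with TNF in collagen (adjusted p = 0.00156). Steap4, a metalloreductase, rose by 1.08 ± 0.18 with TNF in collagen (adjusted p = 0.003) and fell with TNF in fibrin (-1.03 ± 0.18, adjusted p = 0.0076). Of the copper genes 1 rose and 1 fell with TNF in collagen (1 in all without collagen TNF replicate 1, 2 or 3 or collagen control replicate 1 or 2), with the extracellular superoxide dismutase gene Sod3 at 0.87 ± 0.12 (adjusted p = 0.00053), and 0 passed with TNF in fibrin in limma (4 at an unadjusted p below 0.05, and up to 2 passing in 2 of 21 alternatives).

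Routes known to induce metallothioneins were read from 5 further lists, whose counts stand beside the same shares of all genes (3.27% up and 3.10% down with TNF in collagen, 1.65% and 1.47% with TNF in fibrin, 5.35% and 5.19% for untreated fibrin). Of 24 genes of the interleukin-6 and STAT3 axis 11 rose and 0 fell with TNF in collagen, 4 rose and 1 fell with TNF in fibrin, and 10 were higher and 0 lower in untreated fibrin. Il6 rose in both gels, by 1.72 ± 0.23 in collagen (adjusted p = 0.000579) and by 1.68 ± 0.23 in fibrin (adjusted p = 0.00167). Its level was also higher in fibrin than in collagen, by 2.54 ± 0.23 with TNF (limma, adjusted p = 2.16e-05). Without TNF this difference was 2.33 to 2.78 over the fits that leave out 1 array. Socs3, a feedback target of STAT3, rose by 0.65 ± 0.11 in collagen (adjusted p = 0.00402) and differed by 0.05 ± 0.11 in fibrin (adjusted p = 0.889); the difference of these effects, -0.60 ± 0.16, did not pass (adjusted p = 0.113).

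Of 15 glucocorticoid response genes 4 rose and 1 fell with TNF in collagen and 1 rose and 1 fell in fibrin, where 3.13% of all genes passed in either direction. The called genes of smallest adjusted p in collagen were Hsd11b1 (0.78 ± 0.07, log2, SE; adjusted p = 1.67e-05), Pdk4 (-1.38 ± 0.18, 0.000402), Ddit4 (1.36 ± 0.24, 0.00362) and Dusp1 (0.44 ± 0.08, 0.00601). In fibrin those called were Hsd11b1 (0.41 ± 0.07) and Pdk4 (-1.22 ± 0.18). The glucocorticoid receptor gene Nr3c1 and its targets Fkbp5 and Tsc22d3 passed in no comparison, with differences of 0.06, 0.04 and -0.18 for TNF in collagen. Of 18 Nrf2 antioxidant genes 3 rose and 0 fell in collagen (1 without collagen TNF replicate 2 or 3) and 8 rose and 0 fell in fibrin. Slc7a11, the cystine transporter gene, rose by 0.68 ± 0.09 in collagen (adjusted p = 0.000483) and by 1.10 ± 0.09 in fibrin (adjusted p = 7.55e-05). Of 20 hypoxia genes 6 rose and 0 fell in collagen and 0 rose and 3 fell in fibrin. The number passing in collagen was 3 without collagen TNF replicate 2 or 3 or collagen control replicate 1 or 3, and over all probe sets. In fibrin it was 5 without collagen control replicate 1 or fibrin control replicate 1, and 7 with the replicate block. Of 13 heat shock genes 0 passed in either gel in limma (1 in collagen and 3 in fibrin at an unadjusted p below 0.05), while 1 passed in 2 of 21 alternatives in collagen and in 5 of 21 in fibrin. In untreated fibrin against untreated collagen, 5 glucocorticoid response genes were higher and 1 lower. There 6 Nrf2 genes were higher and 0 lower (4 to 6 in all with 1 array left out). Likewise 6 hypoxia genes were higher and 0 lower (3 to 6 in all). For heat shock 1 was higher and 0 lower. Over all genes 5.35% were higher and 5.19% lower.

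Markers of cell types moved with some of these comparisons. Of 7 smooth muscle markers 3 were lower and 0 higher with TNF in collagen, and 4 were lower and 0 higher in fibrin control than in collagen control, where 3.10% and 5.19% of all genes were lower. The mean log2 level over these 7 ranged from 7.98 to 8.20 in fibrin TNF, 8.12 to 8.45 in fibrin control, 8.18 to 8.34 in collagen TNF and 8.46 to 8.77 in collagen control, so collagen control, the low group of Mt1, Mt2A and Slc39a14, was the high one here. Of 8 macrophage markers 6 were lower and 0 higher in fibrin both without and with TNF, where 5.19% and 3.64% of all genes were lower. The remaining markers, Adgre1 and Cd68, did not pass. Adgre1 differed by 0.52 without and 0.50 with TNF, with every fibrin array above every collagen array, and Cd68 by -0.16 and -0.05. The mean over the list was 8.32 to 8.65 in fibrin TNF, 8.57 to 8.88 in fibrin control, 9.27 to 9.70 in collagen TNF and 9.38 to 9.70 in collagen control. In whole rings, fewer cells of a type and less RNA per cell cannot be told apart, and the part of these shifts in the metallothionein and Slc39a14 differences was not tested. Defining markers of the aortic wall were measured at levels above the array medians: Myh11 (smooth muscle) lay at 9.97 to 11.02, Dcn (fibroblasts) at 13.43 to 13.60 and Cdh5 (endothelium) at 7.74 to 8.29 over the 12 arrays (log2 level).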

How the data were processed

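The value table holds 27342 probe sets on 12 Affymetrix whole-transcript arrays (200 ng of total RNA labelled per sample, per the labels' protocols), with 0 missing values. The authors deposited log2 expression levels, read as log2 from their range of 1.44 to 14.07; background correction, summarization and normalization are not given in the sources used here, and limma is named without a version, per the submitters' processing notes. Array medians lay between 5.89 and 5.98. Scan dates and slides are not given, so no batch was tested.

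The probe annotation named 1 gene for 15097 probe sets, which gave 14324 genes. The 5 comparisons used limma 3.58.1 (R 4.3.3; 1 mean per group, all 12 arrays, two-sided, Benjamini-Hochberg over all genes, threshold 0.05). The fit was tested on simulated data with independent noise on each array, so that test does not cover a pairing of replicates. Genes and lists were chosen with earlier results of these data known. Named were the 5 genes, per list at most 4 called genes, by adjusted p, with at most 2 more, 18 genes by name, and the 5 genes of highest r.

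Replicate numbers, which the titles give, were checked for pairing. Arrays of the same number had deviations correlated at 0.13, 0.14 and 0.14 between collagen TNF and collagen control. Between fibrin TNF and fibrin control the values were 0.25, 0.14 and 0.16. Different numbers reached at most 0.01, though deviations that cancel out within a group lower these values. The numbers may thus pair samples within a gel, which the titles do not state. Across gels, equal numbers gave 0.23, 0.08 and 0.13 for the control groups and 0.05, 0.03 and 0.14 for the TNF groups. Unequal numbers reached up to 0.10 there. Some of these correlations lie in the range found within a gel, so they do not settle whether numbers pair samples across gels. The main fit took no pairing, while the replicate block among the alternatives was also applied to comparisons between gels.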

Additional observations from a re-analysis of the deposited data

Results flagged for a closer look

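For Mt1, the TNF effect in fibrin differed from that in collagen when this difference was itself tested, -0.60 ± 0.10 (log2, fibrin minus collagen, SE; adjusted p = 0.0112). Its TNF effect was 0.21 in fibrin and 0.81 in collagen, and its fibrin control arrays, at 13.27 to 13.44, already lay where the collagen TNF arrays did. Slc39a14 was picked out in the same way, at -0.50 ± 0.10 (adjusted p = 0.0278), with TNF effects of 0.01 in fibrin and 0.51 in collagen. That call did not hold with the replicate block (adjusted p = 0.0673) and was lost in 9 of 20 alternatives in all. The fibrin control arrays of Slc39a14, at 12.18 to 12.32, lay above the collagen TNF arrays.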

How the results depend on the processing

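The calls of Mt1, Mt2A and Slc39a14 for TNF in collagen and for untreated fibrin against untreated collagen held in all 21 alternatives, and that of Mt1 for the difference of TNF effects in all 20, at -0.64 to -0.56 over the fits that leave out 1 array. Among the 5 genes, 1 passed for TNF in fibrin and 2 for fibrin against collagen with TNF under a trended and robust prior. For the difference of TNF effects 1 passed over all probe sets and 1 with the replicate block (Slc39a14 then at an adjusted p of 0.0673), and 1 to 3 with 1 array left out; the block changed no other call of these genes. Without fibrin control replicate 3, Mt2A passed as well (-0.44). The causes of these changes were not tested.

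Directions turned only for differences that had not passed. For TNF in collagen Slc30a1 ran from -0.006 to 0.16 with 1 array left out. For TNF in fibrin Mt2A was 0 after quantile normalization, Slc39a14 was -0.03 after quantile normalization and -0.01 after median centring, and with 1 array left out Slc39a14 ran from -0.03 to 0.04 and Mt3 from -0.07 to 0.18. For untreated fibrin against untreated collagen Slc30a1 was -0.03 after quantile normalization and -0.00096 with array weights, and with 1 array left out Slc30a1 ran from -0.07 to 0.08 and Mt3 from -0.05 to 0.16. With TNF in both gels Mt2A was 0 after quantile normalization, and Mt3 ran from -0.21 to 0.05 with 1 array left out. Mt2A was the brightest probe set on 3 of 3 arrays in fibrin TNF, fibrin control and collagen TNF and on 0 of 3 in collagen control, so quantile normalization gives it 1 value in those groups by construction.

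Over all genes, 912 passed for TNF in collagen (568 to 940 with 1 array left out), 448 for TNF in fibrin (230 in a fit of only those groups, 237 to 539 with 1 array left out), 1173 for fibrin against collagen with TNF (727 to 1196) and 177 for the difference (294 without the dimmest 33.3% of genes, 339 with the trended prior, 103 to 246). The 3 arrays per group limit the precision.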
